A study of Mus musculus with 4 samples.

Results

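C1q-high Gpnmb-low Lyve1-low macrophages were studied in the mononuclear cells of quadriceps and diaphragm from 14-week-old WT mice and from mdx5cv mice of the same age, which carry a point mutation in the dystrophin gene Dmd and model Duchenne muscular dystrophy. Cells had been cryopreserved, thawed and profiled with a droplet method that counts unique molecular identifiers (UMIs) at the 3' end of transcripts, in 1 library for each of the 4 combinations of genotype and muscle. The number of animals behind a library, their sex and their strain background are not stated in the labels, so every value below describes a library and no test between genotypes or muscles was made. Members were chosen by their measured UMIs. A cell was a member when it had at least 1000 UMIs, 500 detected genes and at most 15% mitochondrial UMIs, at least 10 UMIs of C1qa, C1qb and C1qc together, and at least 1 UMI of Adgre1 or Csf1r. It also had to have at most 1 UMI of Gpnmb, at most 1 of Lyve1, Timd4 and Cd163 together, at most 1 of Pdgfra, Lum, Cdh5, Cd3e and Cd79a together, and none of Top2a or Mki67. Of 28163 cells that passed the quality limits, 2533 were members: 92 of 4911 in WT quadriceps, 48 of 7516 in WT diaphragm, 1597 of 8334 in mdx5cv quadriceps and 796 of 7402 in mdx5cv diaphragm. The levels of the genes in the rule chose the cells and are not results.

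C1q is the recognition molecule of the classical complement pathway, and macrophages that make it take up dying cells and debris. In skeletal muscle, Lyve1, Timd4 and Cd163 mark long-lived resident macrophages, whereas Gpnmb and Spp1 mark lipid-laden macrophages of injured and dystrophic tissue; the cells described here carry C1q without a high level of either set. Dystrophic fibres break down and regenerate repeatedly, and blood monocytes that enter through CCR2 supply part of the macrophages that clear them.

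Levels are given as CPM, a gene's UMIs per 1000000 UMIs of all members of a library. Members held 298428 UMIs in WT quadriceps, 240829 in WT diaphragm, 8876816 in mdx5cv quadriceps and 4672100 in mdx5cv diaphragm, and medians were 2963, 4290, 4954 and 5512 UMIs per cell. A gene with no UMI in the WT members could therefore still have up to 12.4 CPM in quadriceps and 15.3 CPM in diaphragm (exact 95% limits). For log2 ratios a count under 3 UMIs was set to 3, which is 10.1 and 12.5 CPM in these 2 groups. Ratios are given with exact 95% intervals, which cover counting error only, not the spread between animals. "Called" means at least 1.5-fold with an interval that excludes 1, among genes with at least 20 CPM in the higher library and 10 UMIs over both, and "rose" and "fell" are used for called genes only. Immediate-early and heat shock genes, which respond to cell handling, took a median of 2.13% and 4.14% of a member's UMIs in WT quadriceps and diaphragm, and 1.09% and 1.93% in mdx5cv. Of the cell barcodes that passed the quality limits, 78 occurred in more than 1 library, none of them a member in both. The Dmd transcript had 2, 1, 9 and 2 UMIs in the members, and a 3' tag of it does not check the genotype. Of the sex-linked marker genes, Xist had no UMI in the members of any library. Ddx3y, which is Y-linked, had 50.3, 37.4, 52.4 and 53.9 CPM in the same order as Dmd. Below, where 2 values of a genotype are given together, quadriceps comes before diaphragm.

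The macrophage identity of the members was checked on genes outside the rule. Ms4a7, a membrane protein of macrophages and microglia, had 419 and 257 CPM in WT and 1593 and 1897 CPM in mdx5cv. In cells that were not C1q-high it had 3.38 and 0.554 CPM in WT and 199 and 128 CPM in mdx5cv. Fcrls, an Fc receptor-like gene known from microglia, had 526 and 544 CPM in WT and 467 and 393 CPM in mdx5cv, which is 9.41 and 26.7 times its level in cells that were not C1q-high in WT, and 9.12 and 17.5 times in mdx5cv. Ccl8, a chemokine of the monocyte chemoattractant protein family, differed: it had 7 UMIs in the WT quadriceps members and 0 in the WT diaphragm members, against 538 and 448 CPM in mdx5cv. After each cell was thinned to 2000 UMIs, 2.56% of WT quadriceps members (2 of 78 cells, exact 95% interval 0.312 to 8.96) had a Ccl8 UMI, beside 2.30% of Pdgfra- or Lum-positive cells of the same library. Ms4a7 was also uneven in WT: thinned, 44.9% and 21.3% of the WT members and 79.6% and 81.2% of the mdx5cv members had an Ms4a7 UMI, and 1 cell held 56.5% of the Ms4a7 UMIs in WT diaphragm.

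Markers of other cell types were low in the members but not absent. The summed level of 7 fibro-adipogenic progenitor (FAP) markers was 466 and 336 CPM in WT and 560 and 565 CPM in mdx5cv, led by the broadly expressed gene Gsn. The 7 endothelial markers summed to 506 and 328 CPM in WT and 245 and 216 CPM in mdx5cv, led by Fabp4 and Cd36, and Pecam1, Cldn5, Flt1 and Egfl7 were at 0 in WT diaphragm. T and NK cell markers stayed between 8.30 and 42.0 CPM, dendritic cell markers between 62.3 and 109 CPM, and neutrophil markers between 55.0 and 80.2 CPM, with S100a8 and S100a9 at 0 in both WT groups. B cell markers summed to between 133 and 355 CPM, nearly all of it Ighm, muscle stem cell markers to between 12.5 and 41.2 CPM and myofibre markers to between 13.4 and 82.8 CPM. The estimated share of free RNA in the members' counts was 3.08% and 0.748% in WT and 2.41% and 1.57% in mdx5cv.

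Close to the limits of the rule the members graded into their neighbours. In mdx5cv quadriceps, the 262 members with 1 Gpnmb UMI had 571 CPM of Spp1, and the 130 cells with 2 Gpnmb UMIs, just outside, had 984 CPM. In mdx5cv diaphragm the corresponding values were 753 CPM in 99 members and 1576 CPM in 57 cells outside. Ms4a7 was alike on both sides, at 1966 and 1895 CPM in quadriceps and 2649 and 2521 CPM in diaphragm. At the other limit, members with 1 UMI of Lyve1, Timd4 or Cd163 had 860 CPM of Ccl8 in mdx5cv quadriceps (78 cells) and 2919 CPM in mdx5cv diaphragm (30 cells), and cells with 2 such UMIs had 1199 CPM (18 cells) and 1928 CPM (15 cells).

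For 5 genes whose levels separate the mdx5cv from the WT members below, the 250 bases before the RefSeq start are printed 5' to 3' on the gene's strand (GRCm38.p6); they are shown because these windows are where the start-proximal motifs of such genes would lie. Capitals mark matches, on either strand, to the interferon-stimulated response element ISRE (GAAA and GAAA with any 2 bases between them), the PU.1 core (GAGGAA) and the STAT6 element (TTC and GAA with any 4 bases between them). Ifit3 is an interferon-induced gene, Retnla is a classical target of interleukin-4 signalling, and PU.1 is the lineage factor of macrophages.
Ccl8 (chr11:82114935-82115184, plus strand): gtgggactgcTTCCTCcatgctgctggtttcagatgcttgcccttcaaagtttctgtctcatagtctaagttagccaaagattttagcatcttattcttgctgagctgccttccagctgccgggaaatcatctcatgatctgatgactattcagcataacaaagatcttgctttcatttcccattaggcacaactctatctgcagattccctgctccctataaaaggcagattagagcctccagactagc
Ccl12 (chr11:82101595-82101844, plus strand): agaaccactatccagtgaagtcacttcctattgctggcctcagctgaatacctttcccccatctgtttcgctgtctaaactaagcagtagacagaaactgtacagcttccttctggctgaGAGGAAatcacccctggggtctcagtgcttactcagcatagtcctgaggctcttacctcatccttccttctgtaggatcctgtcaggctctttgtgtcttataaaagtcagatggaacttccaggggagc
Ms4a7 (chr19:11336147-11336396, minus strand): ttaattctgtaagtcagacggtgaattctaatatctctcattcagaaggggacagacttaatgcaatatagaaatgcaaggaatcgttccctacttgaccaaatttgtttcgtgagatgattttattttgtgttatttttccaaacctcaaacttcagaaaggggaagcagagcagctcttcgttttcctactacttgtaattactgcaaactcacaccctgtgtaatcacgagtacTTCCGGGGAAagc
Ifit3 (chr19:34583279-34583528, plus strand): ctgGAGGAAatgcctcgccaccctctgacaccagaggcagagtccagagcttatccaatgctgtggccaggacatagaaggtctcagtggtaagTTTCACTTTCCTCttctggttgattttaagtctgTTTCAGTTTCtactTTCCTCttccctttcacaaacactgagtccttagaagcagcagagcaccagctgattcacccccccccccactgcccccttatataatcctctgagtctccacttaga
Retnla (chr16:48842359-48842608, plus strand): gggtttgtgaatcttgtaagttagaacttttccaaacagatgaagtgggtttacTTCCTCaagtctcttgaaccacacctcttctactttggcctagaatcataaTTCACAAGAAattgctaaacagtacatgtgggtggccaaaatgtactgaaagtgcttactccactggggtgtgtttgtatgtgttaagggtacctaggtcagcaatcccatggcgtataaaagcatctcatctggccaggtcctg
The Ifit3 window held the ISRE at 156 to 147 and at 122 to 113 bases before the start, and 3 PU.1 cores, of which the one at 149 to 144 overlaps the more distant ISRE. The Retnla window held the STAT6 element at 145 to 136 bases and a PU.1 core at 196 to 191 bases, and the Ms4a7 window the STAT6 element at 13 to 4 bases, counted from the upstream of the 2 starts listed. A PU.1 core lay at 240 to 235 bases in Ccl8 and at 130 to 125 bases in Ccl12. Of the 32817 such windows searched, which did not cover every chromosome, 2.97% held the ISRE, 5.85% the STAT6 element and 23.3% the PU.1 core. All windows were also searched for a GAS element (TTC and GAA with any 3 bases between them), which 7.01% of the 32817 windows held. An NF-kB site (GGGA and CC with any 4 bases between them) was held by 17.6%. TGCTGAC, the core of the MAF recognition element, was held by 3.81%. Among the printed windows and that of Irf7, the only further match was TGCTGAC on the opposite strand of Retnla. It lay at 48 to 42 bases and is not in capitals. The Irf7 window held none of the 6 motifs. Matches are a description of letters and show no binding.

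Members made up a far larger share of the mononuclear cells in mdx5cv than in WT muscle. They were 1.87% of all cells (exact 95% interval 1.51 to 2.29) in WT quadriceps and 0.639% (0.471 to 0.846) in WT diaphragm, against 19.2% (18.3 to 20.02) in mdx5cv quadriceps and 10.8% (10.1 to 11.5) in mdx5cv diaphragm. These intervals cover counting error within 1 library each, not the spread between animals. The rule counts raw UMIs, and depth differed, with medians over all cells of 2055 and 4355.5 UMIs in WT and 5328.5 and 4894.5 in mdx5cv. Dropping cells under 2000 UMIs left 2548 and 6932 cells in WT and 7430 and 6664 in mdx5cv. Members were then 3.06% and 0.678% in WT and 20.4% and 11.4% in mdx5cv. After these cells were thinned to 2000 UMIs, the rule gave 3.38% and 0.620% in WT and 21.7% and 11.3% in mdx5cv. Thinning lowers the counts behind every limit, so the members after thinning need not be the same cells. Among C1q-high cells alone the members' share did not follow the genotype: it was 55.8% (47.8 to 63.5) and 38.1% (29.6 to 47.2) in WT, and 52.4% (50.6 to 54.1) and 61.8% (59.0 to 64.4) in mdx5cv. The rest of the C1q-high cells differed in kind. In WT they were mostly above the Lyve1, Timd4 and Cd163 limit (65 of 165 and 73 of 126 C1q-high cells), and in mdx5cv mostly above the Gpnmb limit (1032 of 3050 and 366 of 1289), a limit that 2 C1q-high cells passed in WT quadriceps and 0 in WT diaphragm. Cycling C1q-high cells numbered 6 and 5 in WT and 362 and 83 in mdx5cv. A share of cells depends on the recovery of every other cell type from the tissue and from freezing, and the part of this in the values was not tested.

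**Figure D1:**
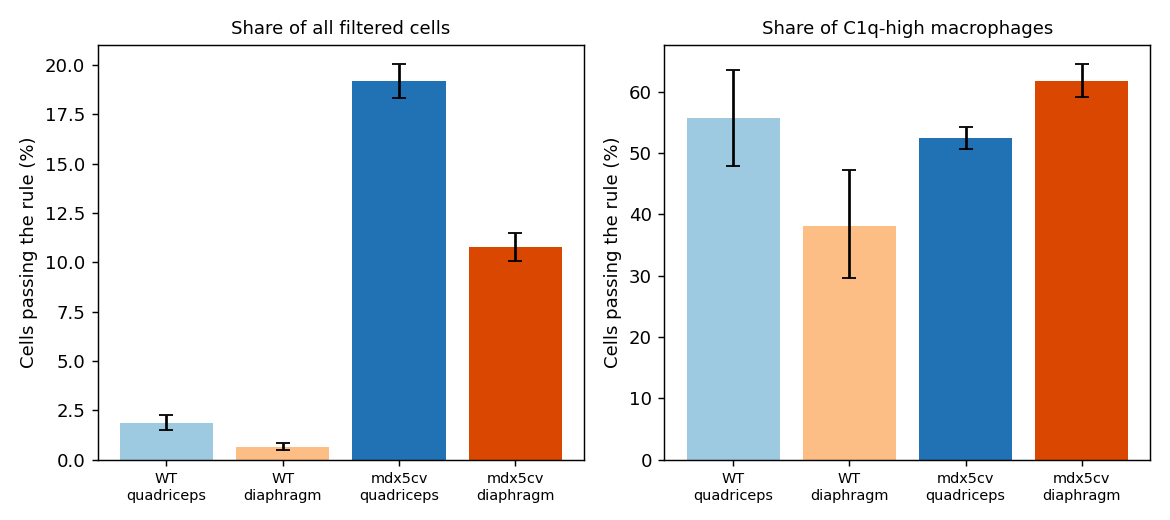
Members as a percentage of all cells that passed the quality limits and of the C1q-high cells, in each of the 4 libraries; bars are percentages and error bars exact 95% intervals for counting error only. Members were 19.2% and 10.8% of all cells in mdx5cv against 1.87% and 0.639% in WT, and between 38.1% and 61.8% of the C1q-high cells.

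Between genotypes, the members of mdx5cv muscle had more transcripts of some monocyte chemoattractants, interferon-induced genes, MHC class I, lysosomal and lipid-handling genes. They had far fewer of the single genes Retnla, Lyz1, Mgl2 and Ccl24. The list of alternative activation genes had median log2 ratios of 0.38 in quadriceps and 0.23 in diaphragm. The list of Lyve1-type resident genes had medians of -0.02 and -0.23. In quadriceps 896 of 6073 genes rose (14.8%) and 523 fell (8.61%). In diaphragm 785 of 5686 genes rose (13.8%) and 431 fell (7.58%). With cells thinned to 2000 UMIs before the rule was applied, 314 rose and 259 fell in diaphragm, of which 226 and 161 were among those just counted. Scaling libraries by the median ratio of genes gave 747 and 606 in quadriceps and 641 and 502 in diaphragm. Of the 5340 genes tested in both muscles, 317 (5.94%) rose in both, 133 (2.49%) fell in both and 48 (0.899%) went opposite ways. With each gene's highest cell capped at the second highest, 371 of 5254 genes (7.06%) rose and 97 (1.85%) fell in both. The median log2 ratio of all genes tested was 0.16 in quadriceps and 0.25 in diaphragm, and the medians of the gene lists below are to be read against these. The WT groups are small, so genes whose WT level came mostly from 1 cell are named as such.

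Ccl8 and Ccl12, chemokines of the monocyte chemoattractant family, were among the genes most raised in mdx5cv. Ccl2 and Ccl7 of the same family rose in quadriceps and fell in diaphragm, as described with the differences between the muscles. For Ccl7, 1 cell held 61.8% of the WT diaphragm UMIs, and with that cell capped Ccl7 did not fall. Ccl8 lies at chr11:82115185-82116799 (GRCm38), beside Ccl12 at chr11:82101845-82103400. Ccl8 was 22.9-fold (11.1 to 57.0) higher in mdx5cv than in WT quadriceps. In diaphragm, where no WT member had a UMI, the lower bound of its ratio was 29.2-fold. The log2 ratio of Ccl8 in quadriceps was 4.52, and 5.49 with a C1q limit of 20 UMIs. It was 1.49 with cells thinned to 2000 UMIs before the rule was applied. Such thinning can bring cells above the Lyve1, Timd4 and Cd163 limit into the members. In WT quadriceps those cells had 958 CPM of Ccl8 against 23.5 in the members, and their part in the lower ratio was not tested. In diaphragm the log2 value of Ccl8, taken against at least 3 WT UMIs, was 5.17, and 4.25 with thinned cells. It was 4.54 with exclusion limits of 0 and 4.43 without members above 4% of UMIs in immediate-early and heat shock genes. Ccl12, a CCR2 ligand, had 53.6 and 49.8 CPM in WT and 488 and 921 CPM in mdx5cv and rose 9.10-fold (5.60 to 15.9) in quadriceps and 18.5-fold (10.6 to 35.8) in diaphragm; its log2 ratios, 3.19 and 4.21, were 1.501 and 2.96 with thinned cells. Cxcl16, a membrane-bound chemokine and scavenger receptor, rose from 204 and 166 CPM in WT to 496 and 518 CPM in mdx5cv. The rest of the chemokine genes did not share a direction. Of 10 CC chemokines tested, 5 rose and 3 fell in quadriceps (median log2 ratio 0.44), and 2 rose and 6 fell in diaphragm (median -0.76); the quadriceps median was -0.13 with cells thinned to 2000 UMIs. Ccl4, an inflammatory chemokine of macrophages, had 1354 and 5016 CPM in WT and 561 and 1079.8 CPM in mdx5cv and fell 2.41-fold (2.18 to 2.67) and 4.65-fold (4.36 to 4.95). Ccl24, an eosinophil-attracting chemokine, had 292 and 203 CPM in WT and 38.8 and 22.5 CPM in mdx5cv and fell 7.52-fold (5.88 to 9.54) and 9.05-fold (6.31 to 12.8). Of 7 CXC chemokines, 3 rose and 4 fell in quadriceps and 1 rose and 5 fell in diaphragm (medians -0.96 and -2.23). Of 9 chemokine receptors, 4 rose in quadriceps, 5 in diaphragm and none fell; the median log2 ratios were 0.45 and 0.79. Cmklr1, the receptor of chemerin, rose in both muscles. Ccr2 itself had 771 and 382 CPM in WT and 652 and 558 CPM in mdx5cv, lowest in the WT diaphragm members, and Cx3cr1, the fractalkine receptor, had 426 and 154 CPM in WT and 457 and 510.5 CPM in mdx5cv with a quadriceps ratio of 1.07 (0.899 to 1.29) and a rise of 3.32-fold (2.40 to 4.73) in diaphragm.

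Ly6c2 and Plac8, genes of inflammatory monocytes, were detected in mdx5cv members and not in the few WT members. Of the 7 monocyte markers 4 were tested. Ly6c2, Plac8 and Chil3 rose in both muscles, and none fell. The median log2 ratios were 2.22 in quadriceps and 2.45 in diaphragm, with 2 of the 4 genes at the floor of 3 UMIs. The sum of all 7 showed less contrast, at 787 and 411 CPM in WT and 908 and 851 CPM in mdx5cv. It was led by Ccr2 in every library. Ly6c2, the monocyte surface antigen, had no UMI in WT and 65.9 CPM in mdx5cv quadriceps and 96.7 in mdx5cv diaphragm. The lower bounds of its ratios were 5.31-fold in quadriceps and 6.29-fold in diaphragm. Plac8, another monocyte gene, likewise had no UMI in WT and 107 CPM in mdx5cv quadriceps and 104 in mdx5cv diaphragm. Thinning the cells before the rule was applied gave log2 values, taken against at least 3 WT UMIs, of 1.42 and 0.40 for Ly6c2 and 1.88 and 0.54 for Plac8, quadriceps first. These genes were found in a minority of the mdx5cv members: 6.93% and 8.14% of the cells had a Ly6c2 UMI after thinning to 2000 UMIs, beside 0.248% and 0.181% of Pdgfra- or Lum-positive cells. In the WT members 0 of 78 and 0 of 47 thinned cells had one, which allows up to 4.62% and 7.55% (exact 95% limits). Ms4a4c, also high in monocytes, had 20.1 and 8.30 CPM in WT and 175 and 169 CPM in mdx5cv and rose 8.71-fold (3.99 to 23.8) in quadriceps and 20.4-fold (5.62 to 168) in diaphragm, the latter from 2 WT UMIs. Of 7 genes of the Ms4a family, 4 rose and 1 fell in quadriceps and 6 rose and 1 fell in diaphragm (median log2 ratios 0.78 and 1.43). Ms4a7 rose 3.80-fold (3.19 to 4.57) and 7.37-fold (5.74 to 9.62), and Ms4a6c and Ms4a6d rose in both muscles, whereas Ms4a8a fell in both. With the highest cell of each gene capped at the second highest, the diaphragm ratio of Ms4a7 was 12.7.

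Most of the interferon-induced genes rose. Of 20 tested, 19 rose and none fell in quadriceps (median log2 ratio 1.96), and 14 rose and 2 fell in diaphragm (median 1.79). The same 14 rose in both muscles, among them Isg15, Ifit2, Ifit3, Irf7, Rsad2, Oasl2, Bst2, Ifi27l2a, Usp18, Zbp1, Xaf1, Rtp4 and Ifi47. Irf7, the transcription factor that amplifies type I interferon production, had 3 and 1 UMIs in the WT members (10.1 and 4.15 CPM) and 105 CPM in mdx5cv quadriceps and 83.3 in mdx5cv diaphragm, a ratio of 10.5-fold (3.57 to 50.8) in quadriceps and 20.1-fold (3.58 to 794) in diaphragm. Ifit3, which binds viral RNA complexes with its relatives, had 6.70 and 4.15 CPM in WT and 83.0 and 77.5 CPM in mdx5cv, with ratios of 12.4-fold (3.42 to 102) and 18.7-fold (3.33 to 739) from 2 and 1 WT UMIs. Reads of Ifit3 and its close copy Ifit3b may not be separable. Bst2, which tethers budding viruses to the cell, had 124 and 133 CPM in WT and 508 and 438 CPM in mdx5cv and rose 4.10-fold (2.97 to 5.83) and 3.30-fold (2.33 to 4.83). Rsad2, the antiviral enzyme viperin, had 16.8 and 12.5 CPM in WT and 95.5 and 109 CPM in mdx5cv. The 2 that fell in diaphragm were Ifit1 and Cxcl10, a CXCR3 ligand, both higher in the WT diaphragm members than in any other library's. Cxcl10 had 121 and 656 CPM in WT and 227 and 191 CPM in mdx5cv. For Ifit1, 1 cell held 77.4% of the UMIs in WT diaphragm. Ifitm3, the gene of the list with the highest level, was not called in either muscle. It had 2543 and 2890 CPM in WT and 2046 and 2271 CPM in mdx5cv. Of the 20 genes, 4 in quadriceps and 8 in diaphragm were at the floor of 3 UMIs in a library. The diaphragm median of the list was 1.23 when members with over 4% of UMIs in immediate-early and heat shock genes were left out, and 0.75 with cells thinned to 2000 UMIs.

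MHC class I genes, which present peptides to cytotoxic T cells and are themselves induced by interferon, also rose. Of 13 tested in quadriceps 8 rose, and of 12 in diaphragm 9 rose; none fell, and the median log2 ratios were 1.08 and 1.06. B2m, the invariant light chain, had 1119 and 1117 CPM in WT and 2959.7 and 1815 CPM in mdx5cv and rose 2.64-fold (2.37 to 2.95) and 1.62-fold (1.44 to 1.84). H2-K1 had 1153 and 984 CPM in WT and 2482 and 2086 CPM in mdx5cv, a ratio of 2.15-fold (1.94 to 2.40) and 2.12-fold (1.86 to 2.42). The peptide transporter gene Tap1, the tapasin gene Tapbp, the immunoproteasome genes Psmb8 and Psmb9, and H2-Q7 rose in both muscles as well. H2 genes are near-copies of each other, and counts of single H2 members are uncertain.

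MHC class II genes did not show such a shift. Of 10 tested, 1 rose and 4 fell in quadriceps (median log2 ratio -0.22) and 3 rose and 1 fell in diaphragm (median 0.10, or -0.11 with no CPM minimum). H2-Aa had 9453 and 8139 CPM in WT and 8607 and 10210 CPM in mdx5cv, and all 4 groups lay within that narrow range. Cd74, the invariant chain, had 23986 and 23917 CPM in WT and 13537 and 20490 CPM in mdx5cv, with the mdx5cv quadriceps members lowest. Ifi30, the thiol reductase of antigen processing, rose in both muscles, and H2-DMb2, a subunit of the peptide-loading chaperone, fell in both.

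Lysosomal and lipid-handling genes were higher in mdx5cv. Cells above the Gpnmb limit had been left out, but 262 and 99 mdx5cv members had 1 Gpnmb UMI and no WT member had any. The part of these members in the values was not tested. Of 25 lysosomal genes, 14 rose in quadriceps (median log2 ratio 0.67) and 13 in diaphragm (median 0.74), 11 of them in both, and none fell. Ctsb, a cysteine protease, had 2044 and 1773 CPM in WT and 5281 and 4442 CPM in mdx5cv and rose 2.58-fold (2.39 to 2.80) and 2.50-fold (2.28 to 2.76). Lgmn, the asparaginyl endopeptidase legumain, had 657 and 353 CPM in WT and 1987 and 1349 CPM in mdx5cv, a ratio of 3.03-fold (2.63 to 3.50) and 3.82-fold (3.09 to 4.79). Psap, the precursor of the saposins, had 1957 and 1682 CPM in WT and 5381 and 3950.5 CPM in mdx5cv. Ctsa, Ctsd, Ctsl, Cd63, Cd68, Npc1, Npc2 and the proton pump subunit Atp6v1a also rose in both muscles.

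Of the lipid metabolism genes, 12 of 16 rose and 1 fell in quadriceps, and 9 of 15 rose and 1 fell in diaphragm, with median log2 ratios of 0.96 and 1.11. Apoe, the apolipoprotein secreted by macrophages, had 3599 and 4426 CPM in WT and 9042 and 10607 CPM in mdx5cv and rose 2.51-fold (2.37 to 2.67) and 2.40-fold (2.26 to 2.55). Fabp5, a fatty acid carrier, had 104 and 91.4 CPM in WT and 477 and 484 CPM in mdx5cv and rose 4.59-fold (3.23 to 6.76) and 5.29-fold (3.49 to 8.46). The cholesterol exporter Abcg1 had 26.8 and 24.9 CPM in WT and 141 and 66.8 CPM in mdx5cv, and Nr1h3, the sterol-sensing receptor LXR alpha that controls it, Soat1, Apoc2, Acp5 and Npc1 rose in both muscles too. Of 10 genes of lipid-associated macrophages, 9 rose in each muscle, 8 of them in both; 1 fell in quadriceps. Trem2, the lipid-sensing receptor of these cells, had 171 and 74.7 CPM in WT and 387 and 297 CPM in mdx5cv and rose 2.26-fold (1.72 to 3.04) and 3.97-fold (2.50 to 6.72). Spp1, osteopontin, had 137 and 8.30 CPM in WT and 518 and 455 CPM in mdx5cv, with ratios of 3.77-fold (2.77 to 5.26) and 54.8-fold (15.2 to 453), the latter from 2 WT UMIs. Lgals3, the lectin galectin-3, had 255 and 378 CPM in WT and 910.2 and 942 CPM in mdx5cv. These lists overlap each other and the genes that separate members from Gpnmb-high cells, so they are not independent of the limit on Gpnmb.

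Genes for uptake of dying cells and of antibody-coated particles rose more often than they fell. So did all genes tested, of which 14.8% rose and 8.61% fell in quadriceps and 13.8% and 7.58% in diaphragm. Of 17 efferocytosis genes, 8 rose and 1 fell in quadriceps and 9 rose and 2 fell in diaphragm, with median log2 ratios of 0.41 and 1.04. Stab1, a receptor for phosphatidylserine, had 238 and 120.4 CPM in WT and 612 and 429 CPM in mdx5cv and rose 2.57-fold (2.03 to 3.30) and 3.56-fold (2.47 to 5.33). Gas6, the bridging ligand of Axl and Mertk, Itgb5, Scarb2 and Lrp1 rose in both muscles, and Mfge8, another bridging protein, fell in both. Of 9 Fc receptor genes and their signalling partners, 4 rose in quadriceps and 5 in diaphragm and none fell. Their medians were 0.27 and 0.62, against 0.16 and 0.25 for all genes tested. Fcgr4, an activating receptor for IgG, had 40.2 and 37.4 CPM in WT and 131 and 149 CPM in mdx5cv and rose 3.26-fold (1.86 to 6.32) and 3.97-fold (2.08 to 8.73). Among complement genes outside the rule, Cfb, factor B of the alternative pathway, had no UMI in WT and 107 CPM in mdx5cv quadriceps and 58.4 in mdx5cv diaphragm. The lower bounds of its ratios were 8.64-fold and 3.79-fold. Of 13 complement genes tested 4 rose and 2 fell in quadriceps, and of 12 tested 3 rose and 5 fell in diaphragm (medians 0.53 and -0.39).

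Retnla, which encodes the secreted protein RELM alpha, showed the reverse. It lies at chr16:48842551-48844461 and had 13906 and 7703 CPM in WT and 441 and 128 CPM in mdx5cv, a fall of 31.6-fold (30.2 to 33.0) in quadriceps and 60.4-fold (55.0 to 66.3) in diaphragm. In WT it was found in 23.9% and 50% of members, and in mdx5cv in 5.01% and 2.14%; the highest cell held 22.4% and 22.5% of its WT UMIs. Lyz1, a lysozyme gene, had 3113 and 3625 CPM in WT and 172 and 92.5 CPM in mdx5cv and fell 18.1-fold (16.7 to 19.6) and 39.2-fold (34.9 to 44.1). Its near-identical neighbour Lyz2, which may share reads with it, had 28365 and 31122 CPM in WT and 15618 and 17463 CPM in mdx5cv, a fall of 1.82-fold (1.78 to 1.86) and 1.78-fold (1.74 to 1.82). Mgl2, a galactose-type lectin of alternatively activated macrophages and dendritic cells, had 1133 and 1258 CPM in WT and 94.97 and 186 CPM in mdx5cv and fell 11.9-fold (10.5 to 13.5) and 6.76-fold (5.91 to 7.71). Of 9 genes of Lyve1-type resident macrophages tested in quadriceps 1 rose and 3 fell, and of 8 in diaphragm 2 rose and 3 fell (medians -0.02 and -0.23). Not all genes of alternative activation fell: Il10, the anti-inflammatory cytokine, had 3.35 and 12.5 CPM in WT and 35.3 and 49.7 CPM in mdx5cv with a quadriceps ratio of 10.5-fold (1.87 to 417) from 1 WT UMI, and Chil3 rose in both muscles. Over the list of 13 and 14 such genes tested, 3 rose and 2 fell in quadriceps and 3 rose and 3 fell in diaphragm (medians 0.38 and 0.23).

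Further genes fell in both muscles, some of them carried by 1 WT cell. Sp140, a bromodomain gene of leukocytes, had 36.9 and 83.0 CPM in WT and 0.563 and 0.214 CPM in mdx5cv, from 5 and 1 UMIs in mdx5cv. Aldh1a2, which makes retinoic acid, had 40.2 and 37.4 CPM in WT and 1.92 and 1.93 CPM in mdx5cv and fell 20.997-fold (9.15 to 46.6) and 19.4-fold (6.82 to 55.2). Cd2, a lymphocyte adhesion gene that some dendritic cells also express, had 80.4 and 74.7 CPM in WT and 4.62 and 6.21 CPM in mdx5cv, Cd226 had 50.3 and 45.7 CPM in WT and 6.08 and 4.07 CPM in mdx5cv, and Ccrl2, a non-signalling chemerin receptor, had 298 and 1125 CPM in WT and 68.8 and 143 CPM in mdx5cv. Myh11, Acta2 and Tagln, contractile genes of smooth muscle, fell in both muscles, but 1 cell held 94.7%, 91.2% and 97.0% of their UMIs in WT quadriceps and 1 cell all of them in WT diaphragm. With that cell capped at the second highest, none of these 3 genes was called in either muscle. Among the genes highest in mdx5cv, Lgals3bp, a secreted galectin-binding glycoprotein, had 90.5 and 49.8 CPM in WT and 402 and 332 CPM in mdx5cv and rose 4.44-fold (3.05 to 6.75) and 6.66-fold (3.80 to 12.9), and Syngr1, a vesicle protein gene, had 3.35 and 4.15 CPM in WT and 73.3 and 68.3 CPM in mdx5cv from 1 UMI in each WT group.

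Immediate-early and heat shock genes were lower in mdx5cv in both muscles, and inflammatory genes were lower in diaphragm. Of 15 inflammatory genes tested in diaphragm 11 fell and none rose (median log2 ratio -1.09), and of 13 in quadriceps 2 fell and 3 rose (median -0.06). Tnf had 168 and 183 CPM in WT and 54.4 and 88.6 CPM in mdx5cv and fell 3.08-fold (2.25 to 4.13) and 2.06-fold (1.48 to 2.82). Cd14, the lipopolysaccharide co-receptor, had 513 and 1134 CPM in WT and 236 and 276 CPM in mdx5cv and fell 2.17-fold (1.83 to 2.56) and 4.10-fold (3.59 to 4.68). Il6 had 191 CPM in WT diaphragm, 0 in WT quadriceps and at most 1.24 CPM in mdx5cv. Of 18 immediate-early and heat shock genes 13 fell and none rose in each muscle, with medians of -0.75 and -0.78. Leaving out members with over 4% of UMIs in these genes, which kept 77, 22, 1570 and 710 members, brought the diaphragm median to 0.055, as that limit acts on the list itself. Hspa1a, whose reads may be shared with its copy Hspa1b, had 4259 and 4629.8 CPM in WT and 1239 and 2628 CPM in mdx5cv. These genes respond to dissociation and thawing, and their part in the inflammatory values of the WT diaphragm members was not tested. Hmox1, the haem-degrading enzyme, had 643 and 1810.4 CPM in WT and 234 and 458 CPM in mdx5cv and fell 2.74-fold (2.35 to 3.18) and 3.95-fold (3.55 to 4.38). Hmox1 was the only call among 11 iron and haem genes in quadriceps, and in diaphragm 2 of 11 rose and 2 fell (medians 0.18 and 0.17).

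Growth factors, matrix genes and transcription factors of macrophages had fewer shared calls. Of 12 growth factor genes in quadriceps 5 rose, and of 14 in diaphragm 6 rose and 4 fell (medians 0.57 and 0.39). Igf1, which supports muscle regeneration, had 101 and 45.7 CPM in WT and 174 and 174 CPM in mdx5cv and rose 1.73-fold (1.21 to 2.58) and 3.82-fold (2.12 to 7.68). Grn, progranulin, had 476 and 328 CPM in WT and 1929 and 1064 CPM in mdx5cv, a rise of 4.05-fold (3.44 to 4.82) and 3.24-fold (2.60 to 4.11). Tgfbi and Nrp1 rose in both muscles. Of 16 matrix genes and matrix proteases 9 rose and 3 fell in quadriceps, and of 17 in diaphragm 5 rose and 8 fell (medians 0.92 and -0.80). Mmp14, a membrane-bound collagenase, had 0 and 4.15 CPM in WT and 64.7 and 65.3 CPM in mdx5cv, and Timp1 and Tgfbi rose in both muscles, while Fn1, fibronectin, had 724 and 2836 CPM in WT and 369 and 422 CPM in mdx5cv and fell in both, with 40.7% and 25.8% of the WT UMIs in 1 cell. Mmp9 and Ecm1 also fell in both. Of 18 transcription factors 4 rose and 1 fell in quadriceps and 5 rose and 3 fell in diaphragm (median 0.29 in each), and Maf, Irf8 and Nr1h3 rose in both muscles. Maf, which is needed for C1q expression in macrophages, had 426 and 220.1 CPM in WT and 729 and 609 CPM in mdx5cv. Of 14 glycolysis genes 4 rose and 1 fell in quadriceps and 1 rose and 1 fell in diaphragm (medians 0.46 and -0.02), and Eno1 fell in both. Genes known from microglia had values of their own in WT diaphragm: 7 of 11 rose in diaphragm and none fell (median log2 ratio 1.73), and 2 of 13 rose and 3 fell in quadriceps (median 0.04). Olfml3 had 80.4 and 0 CPM in WT and 82.6 and 80.0 CPM in mdx5cv and Tmem119 20.1 and 0 CPM in WT and 26.8 and 50.5 CPM in mdx5cv, with no UMI of either in the 48 WT diaphragm members.

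**Figure D2:**
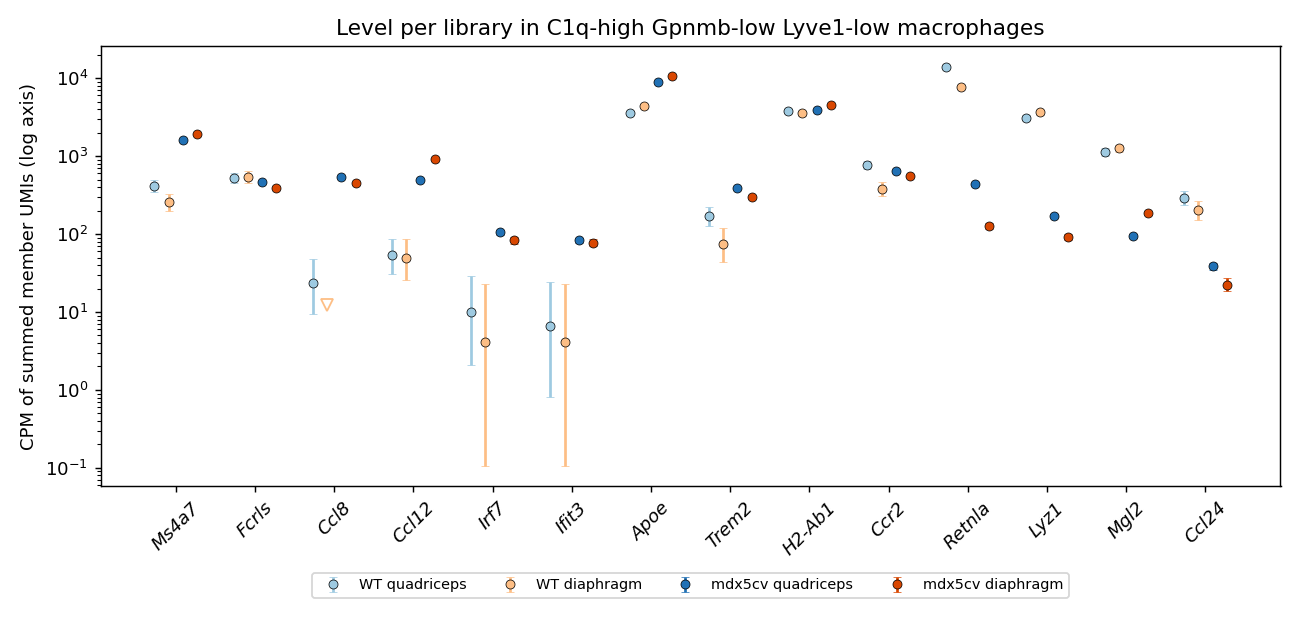
Levels of 14 genes in the members of each library, in CPM on a log axis; points are levels, bars exact 95% Poisson intervals for counting error only, and an open triangle marks the level of 3 UMIs where a library had none. Ccl8, Ccl12, Irf7, Ifit3 and Apoe are higher in both mdx5cv libraries, Retnla, Lyz1, Mgl2 and Ccl24 are lower, and H2-Ab1 and Ccr2 vary less.

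**Figure D3:**
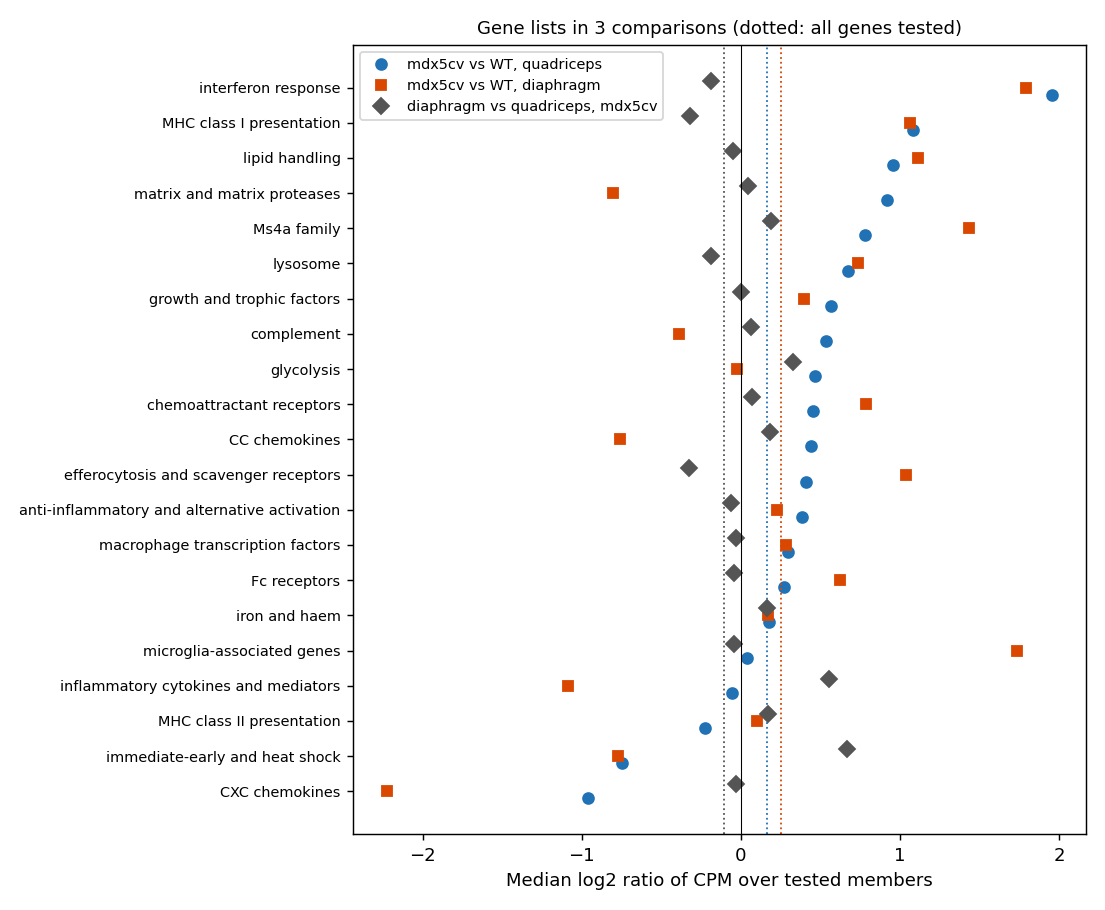
Median log2 ratio of each of 21 gene lists in the members, for mdx5cv against WT in quadriceps and in diaphragm and for diaphragm against quadriceps within mdx5cv; the dotted lines are the medians of all genes tested. The interferon list stands at 1.96 and 1.79 in the genotype comparisons and at -0.19 between the mdx5cv muscles.

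**Figure D4:**
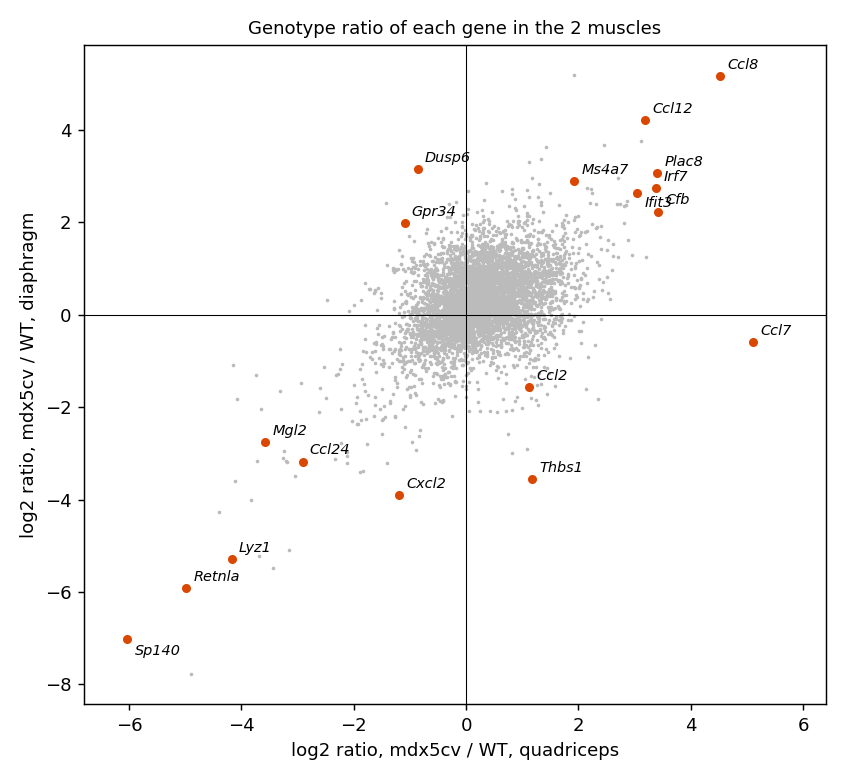
Log2 ratio of mdx5cv to WT in quadriceps (horizontal) and in diaphragm (vertical) for every gene tested in both muscles (grey), with 18 named genes in orange. Ccl12, Ms4a7 and Irf7 lie high on both axes and Retnla, Lyz1 and Mgl2 low on both, while Thbs1 and Ccl2 are higher in mdx5cv quadriceps and lower in mdx5cv diaphragm, relative to WT.

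Within mdx5cv, the members of the diaphragm and of the quadriceps had fewer called genes between them than the genotypes had. Of 5566 genes tested, 143 (2.57%) were higher in diaphragm and 297 (5.34%) lower; with libraries scaled by the median ratio of genes, 177 were higher and 229 lower, so that the share of calls that were higher went from 32.5% to 43.6%. Heat shock, immediate-early and inflammatory genes were higher in diaphragm. Of 18 immediate-early and heat shock genes 10 were higher and none lower (median log2 ratio 0.67, all genes -0.11). Hsph1, a chaperone, had 76.5 CPM in mdx5cv quadriceps and 274 in mdx5cv diaphragm, 3.58-fold (3.26 to 3.94) higher in diaphragm. Hspb1, Dnajb1 and Hsp90aa1, further chaperones, were 3.48-fold (3.19 to 3.81), 3.16-fold (2.89 to 3.46) and 2.65-fold (2.55 to 2.75) higher. Of 13 inflammatory genes 6 were higher and none lower in diaphragm (median 0.56). Il1b had 81.4 CPM in mdx5cv quadriceps and 352 in mdx5cv diaphragm, 4.33-fold (3.96 to 4.73) higher. Cxcl2 and Cxcl1, attractants of neutrophils, were 2.87-fold (2.71 to 3.04) and 3.52-fold (2.60 to 4.8006) higher. The median share of UMIs in immediate-early and heat shock genes was 1.93% in diaphragm and 1.09% in quadriceps members, and its part in the inflammatory values was not tested. Outside these classes, H2-M2, an MHC class I-like gene, had 2.25 CPM in mdx5cv quadriceps and 41.7 in mdx5cv diaphragm, 18.5-fold (11.7 to 31.0) higher, Vcam1, an adhesion molecule, was 3.93-fold (3.32 to 4.66) higher, and Lilra5 and Bcl2a1a were 4.02-fold (3.05 to 5.33) and 2.89-fold (2.31 to 3.64) higher. Slpi, a protease inhibitor, was 5.65-fold (4.37 to 7.38) higher. In mdx5cv diaphragm it was found in 3.64% of members, and 1 cell held 37.4% of its UMIs. Slpi had 2973 CPM in WT diaphragm, 71.9% of it in 1 cell. The log2 difference of Slpi between the mdx5cv muscles was 2.50, and 5.66 with cells thinned to 2000 UMIs before the rule was applied. Cd74 was 1.51-fold (1.5008 to 1.53) higher in diaphragm.

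Folr2, Retnla, Cxcl9 and several lipid and MHC class I genes were lower in the diaphragm than in the quadriceps members of mdx5cv. Folr2, a folate receptor of resident macrophages, had 362 CPM in mdx5cv quadriceps and 132 in mdx5cv diaphragm, 2.74-fold (2.51 to 2.99) lower in diaphragm. Retnla was 3.45-fold (3.17 to 3.77) lower. Of 7 Lyve1-type resident genes 4 were lower and none higher (median -0.82). Cxcl9, an interferon-gamma-induced CXCR3 ligand, had 59.1 CPM in mdx5cv quadriceps and 10.1 in mdx5cv diaphragm, 5.88-fold (4.36 to 8.10) lower. It was found in 2.63% and 2.01% of the cells, and 1 cell held 34.9% of its UMIs in mdx5cv quadriceps. B2m was 1.63-fold (1.59 to 1.67) lower, 3 of 13 MHC class I genes were lower and none higher (median -0.32), while of 20 interferon-induced genes 1 was lower and none higher (median -0.19). Lpl, lipoprotein lipase, had 574 CPM in mdx5cv quadriceps and 265 in mdx5cv diaphragm, 2.17-fold (2.04 to 2.31) lower, and of 16 lipid genes 4 were lower and 1 higher. Npl, a sialic acid lyase, Tm9sf1, Arsb, a lysosomal sulfatase, Myadm, Rpa3, Adam9 and the ferritin pseudogene Ftl1-ps1, which can share reads with Ftl1, were between 2.34-fold and 3.42-fold lower. Myog, a factor of differentiating muscle cells, had 22.4 CPM in mdx5cv quadriceps and 1.28 in mdx5cv diaphragm, but its call was lost with the highest cell capped and with the highest doublet scores removed. None of 25 lysosomal genes was called in either direction between the muscles.

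The genes whose genotype ratio differed most between the muscles were mostly ones in which the WT diaphragm members stood apart. Of 5340 genes, 370 (6.93%) had a larger mdx5cv-to-WT ratio in diaphragm by 1.5-fold or more with an interval that excludes no difference, and 313 (5.86%) a smaller one. Both comparisons rest on different WT groups, of 92 and 48 cells. Counts under 3 UMIs were set to 3 for these differences, as for F11r in WT diaphragm and Ifit1 in WT quadriceps. Larger in diaphragm were Dusp6, a phosphatase of the ERK pathway, with 161 and 12.5 CPM in WT and 88.3 and 110 CPM in mdx5cv and a log2 difference of ratios of 4.01 (2.32 to 5.70), and F11r, a junctional adhesion molecule, with 171 and 8.30 CPM in WT and 64.0 and 66.8 CPM in mdx5cv and 3.84 (2.15 to 5.53). Gpr34, a lysophosphatidylserine receptor known from microglia, had 225 and 29.1 CPM in WT and 105 and 115 CPM in mdx5cv and 3.08 (1.94 to 4.21). In these genes the WT diaphragm members were the lowest of the 4 groups. Rgs1, a regulator of G protein signalling, had 871 and 353 CPM in WT and 266 and 515 CPM in mdx5cv and a difference of 2.25 (1.89 to 2.62). Gadd45g, a stress response gene, had 432 and 149 CPM in WT and 108 and 173 CPM in mdx5cv and a difference of 2.22 (1.67 to 2.77). For Rgs1 and Gadd45g the WT quadriceps members were the highest. Smaller in diaphragm were Thbs1, thrombospondin-1, with 20.1 and 759.9 CPM in WT and 45.3 and 64.6 CPM in mdx5cv and a log2 difference of -4.73 (-5.92 to -3.53), and Cxcl2, with 519 and 9699.8 CPM in WT and 227 and 651 CPM in mdx5cv and -2.70 (-2.95 to -2.45). Ccl2, a CCR2 ligand, had 255 and 1607 CPM in WT and 551 and 539 CPM in mdx5cv and a difference of -2.69 (-3.05 to -2.33). Ccl7, another CCR2 ligand, had 13.4 and 914 CPM in WT and 462 and 606 CPM in mdx5cv and a difference of -5.70 (-7.13 to -4.27); 1 cell held 61.8% of its UMIs in WT diaphragm, and with that cell capped Ccl7 was not lower in the mdx5cv diaphragm. Ifit1 had 6.70 and 129 CPM in WT and 51.1 and 36.4 CPM in mdx5cv and a difference of -4.17 (-5.90 to -2.44), most of its WT diaphragm UMIs being in 1 cell. For all 5 of these genes the WT diaphragm members had the highest level.

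The mdx5cv members were not uniform. With every cell thinned to 2000 UMIs, which left 78, 47, 1516 and 762 cells and dropped 14, 1, 81 and 34 shallower ones, 20.4% and 18.9% of the mdx5cv members had a Ccl8 UMI (27.2% and 25.9% unthinned), against 4.95% and 4.68% of Pdgfra- or Lum-positive cells, whose median depth was 5458 and 5028 UMIs. Ccl8-positive and Ccl8-negative members differed in other genes. Folr2 was found in 62.5% of 309 Ccl8-positive and 25.8% of 1207 Ccl8-negative cells in mdx5cv quadriceps, and in 39.6% of 144 and 9.39% of 618 in mdx5cv diaphragm. Mrc1, the mannose receptor, was found in 74.4% against 50.1% in quadriceps and 79.2% against 46.1% in diaphragm. Fcrls and Ccl12 were also found more often with Ccl8: Fcrls in 64.4% against 42.1% and 71.5% against 36.9%, and Ccl12 in 42.4% against 21.4% and 41.7% against 28.3%. Ccr2 went the other way, in 35.9% of Ccl8-positive against 61.0% of Ccl8-negative members in quadriceps and 20.1% against 57.8% in diaphragm. Cx3cr1 was found in 40.8% against 51.6% and 45.8% against 55.3%. Both muscles had the same order for each of these 6 genes; the cells of a library are not replicates and no test was made.

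MHC class II varied widely from cell to cell. H2-Aa, H2-Ab1, H2-Eb1 and Cd74 together took a median of 4.93% and 5.30% of the 2000 UMIs in WT members and 3.25% and 4.8% in mdx5cv members, and the 10th percentile was 1.16% and 0.780% in WT and 0.05% and 0.3% in mdx5cv. The 90th percentiles were close, between 7.67% and 8.30%. The mdx5cv members with the least MHC class II, 379 cells at or under 0.65% in quadriceps and 191 at or under 2.0% in diaphragm, had more Ccl2, Ccl7 and Spp1 transcripts than those with the most, 379 cells at or over 5.9% and 190 at or over 6.9%. Ccl2 was 1112 against 132 CPM in quadriceps and 1058 against 158 CPM in diaphragm. Ccl7 was 846 against 133 CPM and 1086 against 137 CPM. Ccl8 was close in quadriceps, at 519.8 against 493 CPM with overlapping counting intervals, and 641 against 282 CPM in diaphragm. Spp1 was 704 against 152 CPM and 1018 against 94.7 CPM. Apoe was higher in the cells with the most MHC class II, at 6573 against 12174 CPM in quadriceps and 8251 against 13005 CPM in diaphragm. Retnla was higher in the cells with the most MHC class II, at 806 and 308 CPM, against 3 UMIs in the low cells of quadriceps and 1 in those of diaphragm. These groups were cut from a per-cell percentage and are ranges, not cell types.

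**Figure D5:**
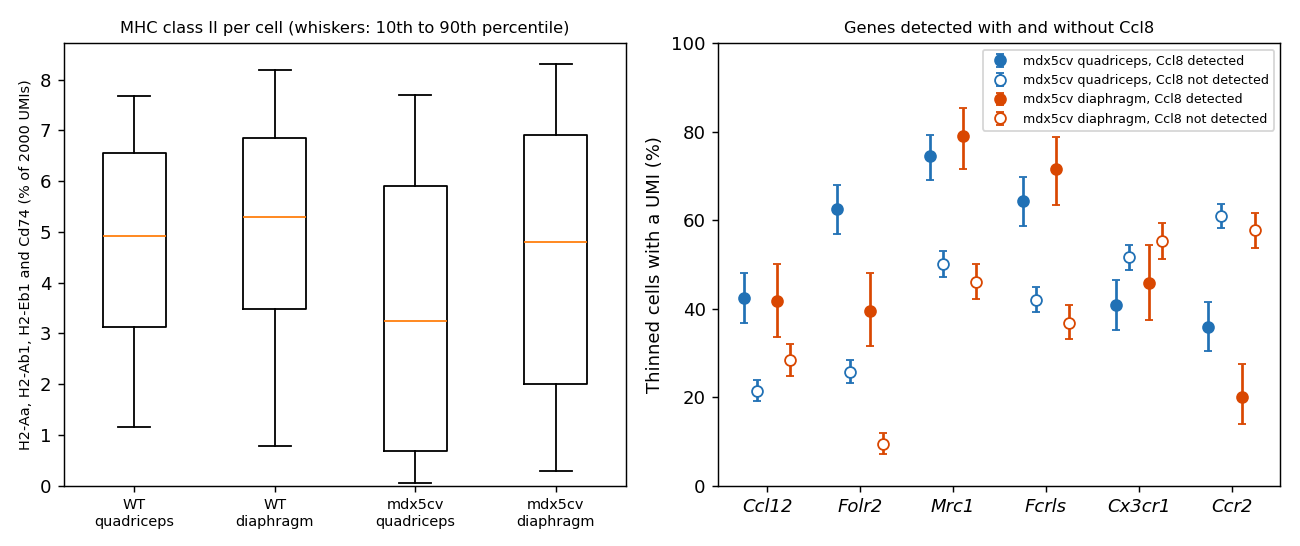
Left, MHC class II transcripts as a percentage of 2000 UMIs per member, with the box at the quartiles, the line at the median and whiskers at the 10th and 90th percentiles; right, percentage of mdx5cv members with a UMI of 6 genes, split by whether the cell had a Ccl8 UMI, with exact 95% intervals. Folr2 is found in 62.5% of Ccl8-positive and 25.8% of Ccl8-negative quadriceps members, and Ccr2 in 35.9% and 61.0%.

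Members were also set beside the C1q-high cells that failed a single limit, although the limits fix part of the difference. Against cells above the Lyve1, Timd4 and Cd163 limit, 15 of 4325 genes (0.347%) were higher in the members of all 4 libraries and 37 (0.855%) lower. Cd52, a small surface glycoprotein of leukocytes, had 1468, 1333, 1564 and 1808 CPM in the members and 646, 271, 531 and 633 CPM in the Lyve1-type cells, with the WT libraries before the mdx5cv libraries. Mpeg1, the pore-forming protein perforin-2, had 462, 291, 1119 and 908 CPM against 203, 113, 477 and 372 CPM. Folr2 had 271, 141, 362 and 132 CPM in the members against 2006, 1622, 1248 and 809 CPM. Ccl8 had 23.5, 0, 538 and 448 CPM in the members against 958, 137, 2747 and 1516 CPM, so that in every library the Lyve1-type cells held more of it. Pf4, F13a1, Mrc1, Ccl24 and Cbr2, genes of resident macrophages, were lower in the members of all 4 libraries as well.

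Against cells above the Gpnmb limit, which were numerous in mdx5cv only, 264 of 5235 genes (5.04%) were higher in the members of both muscles and 178 (3.4%) lower. Ccr2 had 652 CPM in the members and 235 CPM in the Gpnmb-high cells of quadriceps, and 558 and 192 CPM in diaphragm. Ccl12 had 488 against 141 CPM and 921 against 164 CPM. Plac8, Mgl2, Retnla and Marcksl1 were higher in the members of both muscles too. Fabp5 had 477 CPM in the members against 3864 CPM in quadriceps, and 484 against 4660 CPM in diaphragm. Spp1 had 518 against 3249 CPM and 455 against 4823 CPM, and Ctsd 1463 against 5247 CPM and 1123 against 5217 CPM. Fabp5, Spp1 and Ctsd were thus several-fold higher in the Gpnmb-high cells of both muscles. Lgals3 had 910 against 3408 CPM and 942 against 3960 CPM.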

How the data were processed

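The authors deposited unfiltered matrices of UMI counts, 1 count per gene and barcode for 32285 genes, from 4 libraries, 1 per combination of genotype and muscle. The tool was Cell Ranger, version 5.0.0 and build mm10 per the submitters' processing notes but version 4 per the file headers. The sources used here name no annotation. No ambient RNA or doublet removal is recorded in the labels. Total UMIs were 18837891 and 40226833 in WT and 62780685 and 49612759 in mdx5cv, quadriceps before diaphragm.

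The count matrices were read and members chosen by the rule given above. Both the members and the 34 gene lists (21 of pathways and 13 of cell type markers) were chosen with earlier results of these data known. UMIs of the members were summed per library and divided by the members' total to give CPM. Ratios between libraries carry exact conditional 95% intervals; 1 library per group leaves no replicate check, so p-values are not given. Differences of log2 ratios between muscles carry normal intervals from the 4 counts. For list medians, log2 ratios and differences of log2 ratios, a count under 3 UMIs was set to 3. Genes of the rule, mitochondrial, ribosomal, haemoglobin and sex-linked marker genes were left out of the tests. The script was tested on simulated counts with known ratios.

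Genes were named by rank of the interval bound nearest to no difference: for genotype, the 12 highest and 12 lowest in both muscles; between mdx5cv muscles, 12 in each direction; for the genotype ratio between muscles, 5 in each direction. Genes with over 20% estimated ambient origin in the higher library were left out, the ambient profile coming from barcodes with 10 to 100 UMIs. List members called the same way in both muscles and the marker genes were named too. Other named genes, among them those called in 1 muscle or in opposite directions and those set against other C1q-high cells, were chosen after their values were seen.

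Scrublet, as built into scanpy, called 0, 0, 0 and 293 cells doublets at its own threshold, so it did not work in 3 libraries and no doublets were removed; removing the highest scores in every library, at 0.8% per 1000 cells, was an alternative. The other alternatives were a minimum of 2000 UMIs, a mitochondrial limit of 10%, a C1q limit of 20 UMIs, exclusion limits of 0 UMIs, cells thinned to 2000 UMIs, median ratio scaling, equal weights for cells, ambient counts subtracted, and a CPM minimum of 100 or none. Leaving out members with over 4% of UMIs in immediate-early and heat shock genes, and capping each gene's highest cell at the second highest, were chosen after seeing the data. Positions are from GENCODE M21 (GRCm38), which held 32158 of the 32285 gene identifiers (99.6%), and promoter windows from RefSeq. Software was Python 3.11.15 with pandas 2.3.3, numpy 2.4.6, scipy 1.17.1, anndata 0.12.19, scanpy 1.11.5 and matplotlib 3.10.9.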

Additional observations from a re-analysis of the deposited data

Results flagged for a closer look

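For 16 genes of the lists or the named set the mdx5cv-to-WT ratio lay on opposite sides of 1 in the members of the 2 muscles, at least 1.5-fold each way with intervals that exclude 1, and still did so with each gene's highest cell capped. Among all 5340 genes tested in both muscles, 48 (0.899%) were called in opposite directions before capping. F11r, Dusp6, Gpr34, Thbs1 and Ccl2 had been named for the difference of their ratios between the muscles. Their opposite directions thus follow in part from that choice. The difference between the muscles was not tested, since each group is 1 library. Ratios are given for quadriceps, then diaphragm.

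Genes of inflammation and chemotaxis were among them. Il1b had ratios of 1.87 and 0.471, Cxcl10 of 1.88 and 0.292 and Ccl2 of 2.17 and 0.336. Clec4e, a receptor for damaged cells, had 2.13 and 0.133, the first taken against 3 UMIs, as the WT quadriceps members had none. Bhlhe40, a transcription factor, had 6.57 and 0.330, and Gdf15, a stress-induced cytokine, 3.62 and 0.521. Genes of matrix turnover and adhesion followed the same direction: Thbs1 had 2.25 and 0.0851, Mmp12 2.52 and 0.352, and Plau, urokinase, 2.22 and 0.397. Mmp13 had 2.38, also taken against 3 WT UMIs in place of none, and 0.276. The integrin chains Itgam and Itgb2, which pair as complement receptor 3, had 1.59 and 0.465, and 2.03 and 0.563.

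The opposite order was found in F11r, with 0.374 and 8.04, Dusp6, with 0.549 and 8.83, Gpr34, with 0.468 and 3.95, and Cd9, a tetraspanin, with 0.534 and 1.997. The 48 WT diaphragm members had the highest median share of immediate-early and heat shock transcripts, 4.14%; its part in these ratios was not tested.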

How the results depend on the processing

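No paired analysis was possible because the labels carry no replicate numbers and each group is 1 library. Over all settings 2087 values were recomputed: 1915 stayed close to the value given, 170 moved and 2 reversed. Reversed were the immediate-early and heat shock list in diaphragm without members above 4% of UMIs in these genes (median log2 ratio 0.055) and Acta2 in quadriceps with the exclusion limits at 0 (log2 ratio 0.26).

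The members' share of all cells moved with the limits. With at least 2000 UMIs it was 3.06% in WT quadriceps and 20.4% in mdx5cv quadriceps. A C1q limit of 20 UMIs gave 1.30% in WT quadriceps, 16.5% in mdx5cv quadriceps and 9.51% in mdx5cv diaphragm. Exclusion limits of 0 gave 1.18%, 14.5% and 8.17% in these 3 libraries. Thinned cells gave 3.38% in WT quadriceps and 21.7% in mdx5cv quadriceps.

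With cells thinned to 2000 UMIs, 314 genes rose and 259 fell in mdx5cv diaphragm; 119 had a larger and 172 a smaller genotype ratio in diaphragm. Thinned members differed from Lyve1-type cells in 8 genes higher and 24 lower, and from Gpnmb-high cells in 159 and 110. The interferon list median, thinned, was 0.75 in diaphragm and -0.39 between the mdx5cv muscles. With a minimum of 100 CPM, 361 genes rose and 194 fell in quadriceps, 297 and 191 in diaphragm, and 56 were higher and 53 lower in diaphragm within mdx5cv. At that minimum 160 and 127 had a larger and a smaller genotype ratio in diaphragm, and 81 and 87 were higher and lower than in Gpnmb-high cells. With no CPM minimum, 389 and 911 genes were higher and lower in diaphragm within mdx5cv, and 522 were higher than in Gpnmb-high cells.

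Of 962 recomputed calls of named genes 63 were lost, 31 of them under the 100 CPM minimum, which removes low genes from the test, and 10 in thinned cells. Removing high doublet scores and capping the highest cell each lost 7: Myh11, Acta2 and Tagln in both muscles, and Myog. The 140 WT members limit the depth of the genotype ratios.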
